A study of Drosophila melanogaster with 9 samples.

Results

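Histone variants and replacement histones are encoded outside the histone gene cluster. Of the 17611 genes in the count table, 6 were chosen by name as genes of this class and found by their FlyBase identifiers: BigH1, His2Av, His3.3A, His3.3B, His4r and cid. The rule names them and uses no measured value, but they were chosen with earlier results of these data known. Their RNA was followed in 9 libraries that the labels call larval brain, with 3 libraries each of an L(3)mbt mutant, a Lint-O mutant and the control strain yw (y w). The study's methods give the mutants as flies carrying the temperature-sensitive allele L(3)mbt ts1 and as a Lint-O knockout made with CRISPR-Cas9. They list the knockout on the y w background of the control, and L(3)mbt ts1 as a separate w stock received as a gift. In comparisons with L(3)mbt mutants, allele and strain background therefore cannot be told apart. By the same methods, larvae of all groups were at the L3 stage and were kept at 29 °C for 5 to 6 days after eggs were laid at 25 °C. L(3)mbt is a chromatin protein, and Lint-O is the protein the study isolated as its partner. The sources used here do not state how many animals went into a library, so p-values measure only the spread between these libraries.

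Most histones are made from clustered, repeated genes whose mRNA is produced during S phase and ends in a stem-loop. Variants and replacement histones come from single genes with polyadenylated mRNA, which for replacement histones is made throughout the cell cycle. BigH1 is the linker histone of early fly embryos and of germ cells, in place of the somatic H1. His3.3A and His3.3B encode the same H3.3 protein, which enters chromatin outside replication, and His4r encodes an H4 with a polyadenylated mRNA. His2Av encodes the only H2A variant of the fly, and cid encodes its centromeric H3.

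The libraries held 18681293 to 31519287 counts, and the genes each group is named for moved with the labels. Lint-O RNA was at 3.50 to 3.88 CPM (counts divided by the library total and scaled) in Lint-O mutant libraries, against 24.9 to 25.5 in L(3)mbt mutant and 21.0 to 21.6 in yw libraries. The l(3)mbt RNA was at 75.9 to 84.1 CPM in L(3)mbt mutant libraries, against 170.4 to 192 in Lint-O mutant and 123 to 141 in yw libraries. The tissue label was not borne out by its markers. The neuroblast genes dpn, ase, grh and klu, the neuron genes nSyb, brp, Syt1 and fne, and the glial genes repo and gcm were under 1 CPM in all 9 libraries. The neuroblast genes insc, mira and wor were over 1 CPM. The other 3 neuron genes and 3 other glial genes of the lists were over 10 CPM, and so were all 4 ovarian somatic genes listed (tj, fs(1)Yb, Fas3 and flam). In the count table the columns of the yw libraries carry the name EGFP. The study also sequenced cultured ovarian somatic cells after knockdown of either gene, with GFP siRNA as the control. Lower RNA of the named gene cannot tell a mutant from a knockdown. The libraries are therefore called by their labels, with no tissue, genotype or rearing assumed.

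BigH1 was almost silent in yw and rose strongly in both mutants. Its normalized counts (counts divided by DESeq2 size factors) were 1188, 1123 and 951 in L(3)mbt mutants, 565, 582 and 557 in Lint-O mutants, and 3.23, 8.15 and 3.04 in yw. Each yw library rested on 3 to 7 reads. The 3 groups did not overlap, and L(3)mbt mutants stood highest.

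The log2 fold change of BigH1 was 7.91 in L(3)mbt mutants (SE 0.40, DESeq2 adjusted p = 6.56e-86) and 6.97 in Lint-O mutants (SE 0.40, adjusted p = 2.43e-66). As a ratio of summed CPM, with an exact 95% interval for counting error only, this was 249-fold (148 to 457) from 3534 and 14 counts in L(3)mbt mutants and yw. In Lint-O mutants it was 131-fold (77.7 to 240) from 1585 counts. By fold change BigH1 stood 13th of the 1936 genes called higher in L(3)mbt mutants, and 7th of the 1396 called higher in Lint-O mutants. Both comparisons use the same yw libraries. L(3)mbt mutants also had 1.91 times as much BigH1 RNA as Lint-O mutants (log2 fold change 0.94, SE 0.11, DESeq2 adjusted p = 4.56e-17). BigH1 was called in both mutants under all 18 alternative settings, including the removal of any single library.

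**Figure D1:**
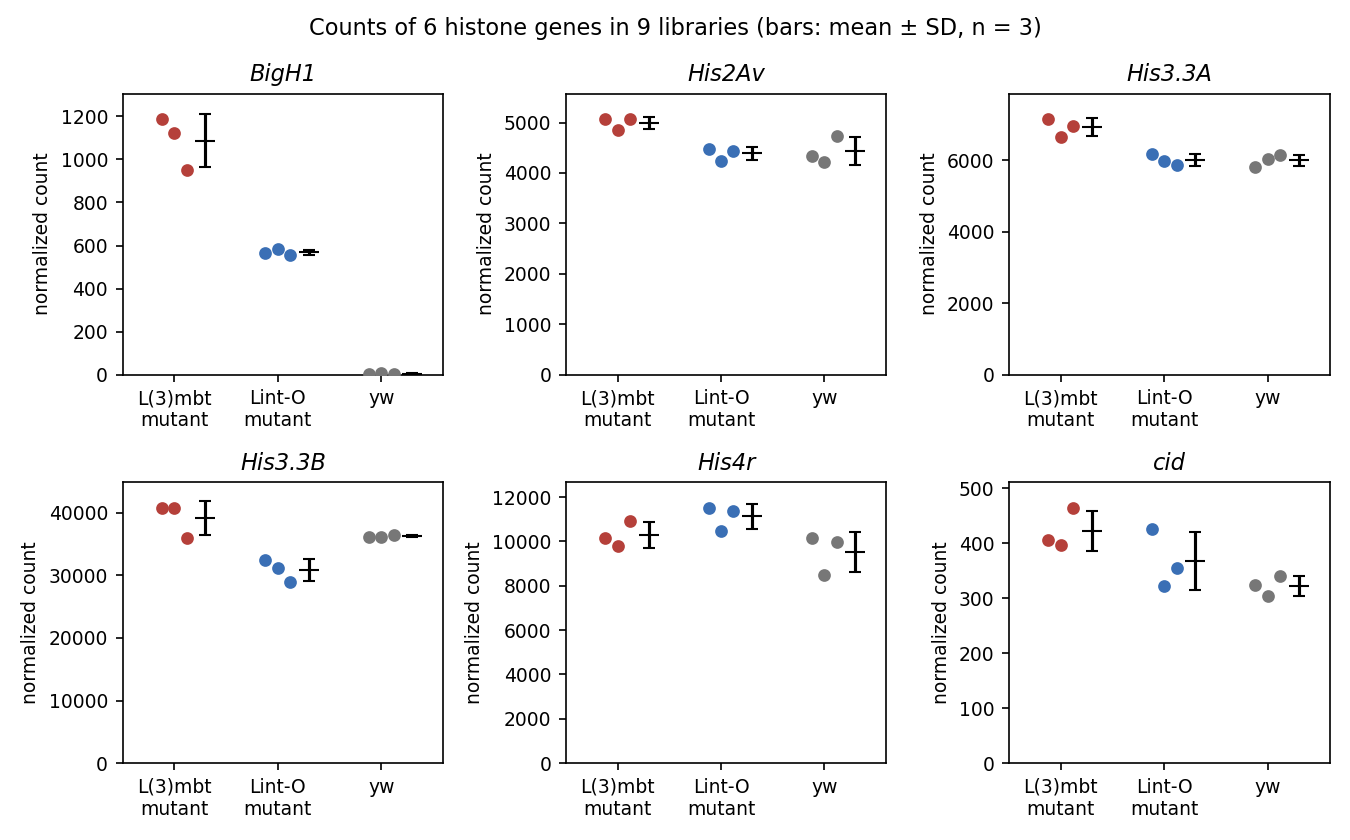
Normalized counts of the 6 genes in each library, for L(3)mbt mutants, Lint-O mutants and yw (points: libraries; bars: mean ± SD, n = 3; each panel has its own axis from 0). BigH1 averages 1087 and 568 in the mutants and 4.81 in yw, while the other 5 genes keep similar levels in the 3 groups.

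Of 7 germline markers, 5 rose with BigH1 in both mutants. The summed level of the 7 was 431 to 493 CPM in L(3)mbt mutants, 248 to 257 in Lint-O mutants and 76.7 to 81.4 in yw. Of that sum, vas gave 262 to 313 CPM in L(3)mbt mutants and 138 to 143 in Lint-O mutants. In yw most of it was stwl, at 56.9 to 61.7. Of the 7, vas, nanos, bam, bgcn and Rbp9 were called higher in both mutants, and osk and stwl in neither. At an unadjusted p under 0.05, 1 of the 7 was lower in L(3)mbt mutants and 0 in Lint-O mutants. Among the 10422 genes tested in both comparisons, which share the yw libraries, 1226 (11.8%) were called higher in both. The germline helicase gene vas had log2 fold changes of 6.75 (SE 0.13) and 5.69 (SE 0.13), and was 1.06 (SE 0.07) higher in L(3)mbt mutants than in Lint-O mutants. The translational repressor gene nanos had 6.93 (SE 0.46) and 5.47 (SE 0.47). The part of germline cells in the BigH1 result was not tested. In bulk libraries, fewer cells of a type and less RNA per cell cannot be told apart.

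The 5 protein-coding genes whose profile over the 9 libraries lay nearest to that of BigH1 were cona, CG9372, CG7166, CG7202 and cGlr1, among 8458 candidates averaging at least 10 normalized counts. Nearness was the root mean square distance between values of log2(normalized count + 1), each centred on its yw mean. It was 0.42 for cona and 0.58 to 0.71 for the others. The gene cona encodes a protein of the synaptonemal complex of meiosis, and cGlr1 a receptor that senses double-stranded RNA. The RNA of cona averaged 13291 ± 114 normalized counts in L(3)mbt mutants, 7681 ± 310 in Lint-O mutants and 75.0 ± 9.65 in yw (SD, n = 3). So cona held the same order of groups at a higher level. CG7202 had overlapping mutant groups, at 99.96 ± 3.81 in L(3)mbt mutants, 87.0 ± 15.2 in Lint-O mutants and 0 in each yw library (SD, n = 3). CG7166 was higher in Lint-O mutants, with 714 ± 96.1 in L(3)mbt mutants, 981 ± 123 in Lint-O mutants and 5.39 ± 1.59 in yw (SD, n = 3). Its direct difference was -0.46 for L(3)mbt mutants over Lint-O mutants on the log2 scale (DESeq2 adjusted p = 0.00115). That call was lost without any 1 of replicates 1 and 2 of either mutant. Under Pearson's r over the same libraries 0 of the 5 names stayed among the nearest 5.

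BigH1 lies on the plus strand of chromosome 3R at 14663450 to 14664822 (FBgn0038252, dm6 coordinates, 1 intron) and shares no exon sequence with another gene. The neighbour with the nearest start is Rad17, a DNA damage checkpoint gene on the minus strand whose start faces that of BigH1 across 252 bases. Meltrin, also on the minus strand, lies closer to BigH1, past its other end from 14664907. It was called in neither mutant (log2 fold changes -0.13, SE 0.10, and -0.12, SE 0.10). Rad17 averaged 558 normalized counts in L(3)mbt mutants, 517 in Lint-O mutants and 519 in yw. Its log2 fold changes were 0.11 (SE 0.10, DESeq2 adjusted p = 0.393) and 0.00 (SE 0.10, adjusted p = 0.997). So the gene with the closest start to BigH1 did not pass the test in either mutant. Of the 9 genes whose starts lie within 50 kb of that of BigH1, 3 were called higher and 0 lower in L(3)mbt mutants, where 18.1% of all tested genes were called higher. In Lint-O mutants 2 were called higher and 0 lower, where 13.4% of all tested genes were called higher.

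CG3505, which starts 6003 bases upstream, was the only one of the 9 called in both mutants, and it was singled out after its values were seen. It had 1275, 1212 and 1370 normalized counts in L(3)mbt mutants, 975, 932 and 1084 in Lint-O mutants, and 423, 487 and 509 in yw, with no overlap between groups. Its log2 fold changes were 1.44 (SE 0.09, DESeq2 adjusted p = 3.33e-52) and 1.07 (SE 0.09, adjusted p = 4.12e-28). Hexim, between CG3505 and Rad17, encodes an inhibitor of the transcription elongation kinase P-TEFb. It was called higher in L(3)mbt mutants, by a small change (0.23, SE 0.07, DESeq2 adjusted p = 0.00433), and the call was lost without any 1 of L(3)mbt mutant replicates 1 and 2 and yw replicates 1, 2 and 3 (0.21 to 0.25). Nor did the Hexim call hold with edgeR (0.21) or with TMM size factors (0.20). Cad88C, a cadherin gene, was the other neighbour called higher in L(3)mbt mutants (1.45, SE 0.35, DESeq2 adjusted p = 0.000167), and it missed the threshold in Lint-O mutants (0.91, SE 0.36, adjusted p = 0.0444). His4r, the other neighbour called higher in Lint-O mutants, starts 37695 bases upstream of BigH1 on the same strand. It is itself one of the chosen histone genes, and its call was lost under several alternatives (below).

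**Figure D2:**
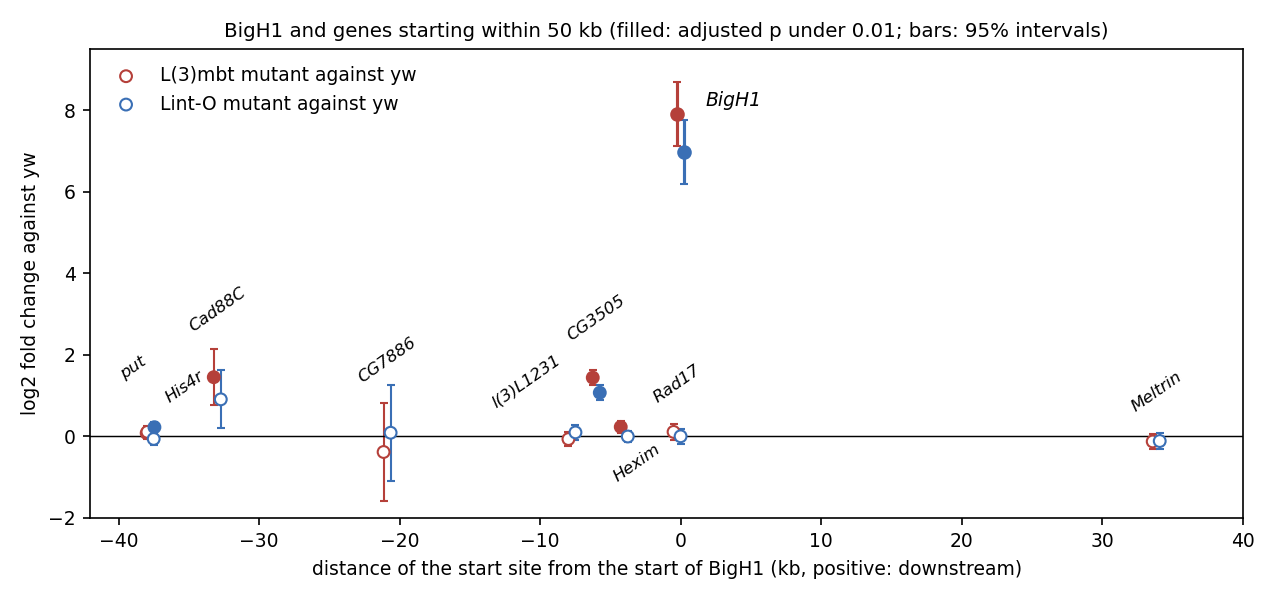
Log2 fold change against yw of BigH1 and the 9 genes whose starts lie within 50 kb, by distance of the start site from that of BigH1 (red: L(3)mbt mutant; blue: Lint-O mutant; bars: 95% intervals; filled: adjusted p under 0.01). BigH1 stands at 7.91 and 6.97, and the next largest value is that of Cad88C, 1.45.

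Of the H3.3 genes, His3.3B fell in Lint-O mutants and His3.3A rose in L(3)mbt mutants. His3.3B (FBgn0004828, X 9152523 to 9156669, minus strand) gave more reads than the other 5 genes in each library. It had 40688, 40832 and 35969 normalized counts in L(3)mbt mutants, 32405, 31130 and 28966 in Lint-O mutants, and 36113, 36192 and 36462 in yw. Every Lint-O mutant library lay below every other library, while L(3)mbt mutant replicate 3 lay just under the yw libraries. The log2 fold change was -0.23 in Lint-O mutants (SE 0.06, DESeq2 adjusted p = 0.000746), against 0.11 in L(3)mbt mutants (SE 0.06, adjusted p = 0.135). The call in Lint-O mutants was lost with library totals as size factors (-0.18, adjusted p = 0.0177) and without Lint-O mutant replicate 3 (-0.19, adjusted p = 0.0172). Without L(3)mbt mutant replicate 3 the gene passed the threshold in L(3)mbt mutants (0.17, adjusted p = 0.00925). Tested directly, His3.3B was 0.34 higher in L(3)mbt mutants than in Lint-O mutants on the log2 scale (SE 0.06, DESeq2 adjusted p = 2.77e-07).

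His3.3A (FBgn0014857, 2L 5055058 to 5056149, plus strand) had 7150, 6648 and 6970 normalized counts in L(3)mbt mutants, 6180, 5975 and 5869 in Lint-O mutants, and 5813, 6024 and 6139 in yw. L(3)mbt mutant libraries lay above all others, and Lint-O mutants overlapped yw. The log2 fold change was 0.21 in L(3)mbt mutants (SE 0.05, DESeq2 adjusted p = 0.000338) and 0.00 in Lint-O mutants (SE 0.05, adjusted p = 0.972, 95% interval -0.10 to 0.11). The call was lost without L(3)mbt mutant replicate 1 (0.19, adjusted p = 0.0117). The direct difference between the mutants was 0.20 (SE 0.05, DESeq2 adjusted p = 0.00102). It was lost with edgeR (0.19) and without any 1 of L(3)mbt mutant replicate 1 and Lint-O mutant replicates 2 and 3 (0.18 to 0.20). Of the exon sequence of His3.3A, 16.77% is shared with Nepl3 on the opposite strand, a gene that was itself called higher in L(3)mbt mutants (0.34, SE 0.07). Reads in shared exons appear to have been left out of the counts: 416 of the 421 protein-coding genes with over 99% of their exon sequence inside other exons had no counts.

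Since both genes encode one protein, their levels per kilobase of unshared exon were also added. The sum was 23646 ± 1070 normalized counts per kilobase in L(3)mbt mutants, 19286 ± 863 in Lint-O mutants and 21391 ± 264 in yw (SD, n = 3). His3.3A gave 35.1 ± 1.99% of that sum in L(3)mbt mutants, 37.4 ± 0.779% in Lint-O mutants and 33.6 ± 0.520% in yw (SD, n = 3). The share ran from 36.9 to 38.3% in Lint-O mutant libraries, all above those of yw, where the middle library was at 33.7%, and L(3)mbt mutant libraries (33.3 to 37.2%) overlapped both. No test was run on these shares.

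His4r (FBgn0013981, 3R 14625755 to 14626614, plus strand) was highest in Lint-O mutants. It had 10176, 9782 and 10907 normalized counts in L(3)mbt mutants, 11530, 10494 and 11396 in Lint-O mutants, and 10136, 8482 and 9987 in yw. Lint-O mutant libraries lay above all yw libraries, and L(3)mbt mutants overlapped both groups. The log2 fold change was 0.22 in Lint-O mutants (SE 0.07, DESeq2 adjusted p = 0.00823) and 0.11 in L(3)mbt mutants (SE 0.07, adjusted p = 0.227). The call did not hold with edgeR (0.22, adjusted p = 0.0275), with TMM size factors or without both independent filtering and the Cook's distance cutoff. It was also lost without any 1 of L(3)mbt mutant replicate 1, Lint-O mutant replicates 1 and 3 and yw replicate 2 (0.15 to 0.22). The direct difference, -0.11 for L(3)mbt mutants over Lint-O mutants (SE 0.07, 95% interval -0.25 to 0.03), missed the threshold (DESeq2 adjusted p = 0.262).

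His2Av (FBgn0001197, 3R 26866929 to 26869220, plus strand) had 5062, 4845 and 5068 normalized counts in L(3)mbt mutants, 4477, 4240 and 4443 in Lint-O mutants, and 4341, 4212 and 4738 in yw. L(3)mbt mutant libraries lay above the rest, with a margin over yw replicate 3 of about the size of the spread. The log2 fold change of 0.17 in L(3)mbt mutants (SE 0.06, DESeq2 adjusted p = 0.0118) missed the threshold, and it passed without yw replicate 3 (0.22, adjusted p = 0.000595). In Lint-O mutants it was -0.02 (SE 0.06, DESeq2 adjusted p = 0.897, 95% interval -0.13 to 0.10). The direct difference between the mutants was 0.19 (SE 0.06, DESeq2 adjusted p = 0.0105), also short of the threshold, and passed it without yw replicate 3 (0.18, adjusted p = 0.00298).

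The centromeric histone gene cid (FBgn0040477, 2R 13485617 to 13486631, plus strand, no intron) had 406, 397 and 465 normalized counts in L(3)mbt mutants, 425, 323 and 356 in Lint-O mutants, and 323, 305 and 341 in yw. L(3)mbt mutant libraries lay above all yw libraries, and those of Lint-O mutants overlapped both groups. The log2 fold change was 0.39 in L(3)mbt mutants (SE 0.12, DESeq2 adjusted p = 0.00590) and 0.19 in Lint-O mutants (SE 0.13, adjusted p = 0.287). The call in L(3)mbt mutants was lost with edgeR (0.36, adjusted p = 0.0115) and without any 1 of L(3)mbt mutant replicates 1 and 3 and yw replicates 1 and 2 (0.31 to 0.42). The direct difference of 0.20 (SE 0.12, 95% interval -0.04 to 0.44) did not pass (DESeq2 adjusted p = 0.255).

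**Figure D3:**
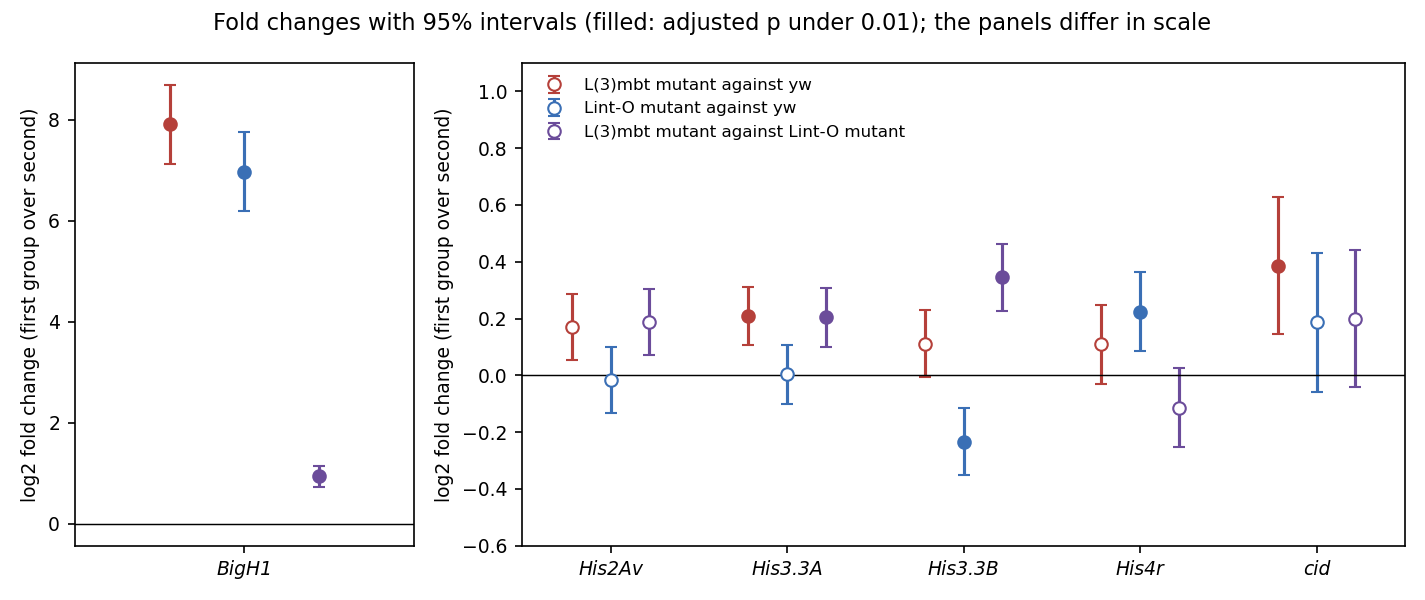
Log2 fold changes of the 6 genes with 95% intervals (red: L(3)mbt mutant against yw; blue: Lint-O mutant against yw; purple: L(3)mbt mutant against Lint-O mutant; filled: adjusted p under 0.01). BigH1, on its own scale, lies at 7.91, 6.97 and 0.94, and the other genes lie between -0.23 and 0.39.

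All 6 genes had enough counts to be tested in each comparison. In L(3)mbt mutants 3 were called higher (BigH1, His3.3A and cid) and 0 lower. Over all 10687 tested genes, 30.7% were called, 18.1% as higher and 12.6% as lower. In Lint-O mutants 2 were called higher (BigH1 and His4r) and 1 lower (His3.3B), where 20.9% of 10422 tested genes were called, 13.4% as higher and 7.52% as lower. Between the mutants 3 were higher in L(3)mbt mutants (BigH1, His3.3A and His3.3B) and 0 lower, where 14.9% of 9097 tested genes were called, 9.22% as higher and 5.71% as lower. The median log2 fold changes of the 6 genes were 0.19, 0.10 and 0.20 in these comparisons, and the medians over all tested genes were -0.01, 0.01 and 0.01. By edgeR the counts were 2 higher in L(3)mbt mutants, 1 higher and 1 lower in Lint-O mutants, and 2 higher between the mutants. Only BigH1 was called in the same direction in both mutants, and 5 of the 6 genes moved by less than 0.40 in any comparison.

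Per kilobase of unshared exon, the order of the genes was nearly the same in the 3 groups apart from BigH1. In L(3)mbt mutants it ran His3.3B (15346 ± 1084 normalized counts per kilobase), His4r (12925 ± 717), His3.3A (8300 ± 304), His2Av (4078 ± 104), BigH1 (850.1 ± 95.8) and cid (416 ± 36.5; SD, n = 3). In Lint-O mutants His4r (13995 ± 708) stood above His3.3B (12082 ± 681), and BigH1 (444 ± 10.4) again above cid (363 ± 51.5). In yw BigH1 (3.76 ± 2.26) came last, 84.7-fold below cid (318 ± 17.8). In each group the library ranges of neighbours in the order did not overlap. The order stayed as it was with whole exon length and with CPM per kilobase. Among 13366 protein-coding genes with at least 200 bases of unshared exon, the rank of BigH1 was 2480 in L(3)mbt mutants, 4059 in Lint-O mutants and 8428 in yw. His3.3B ranked 124, 145 and 139 in the same groups, so the H3.3 gene stayed among the most abundant RNAs while BigH1 changed place.

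**Figure D4:**
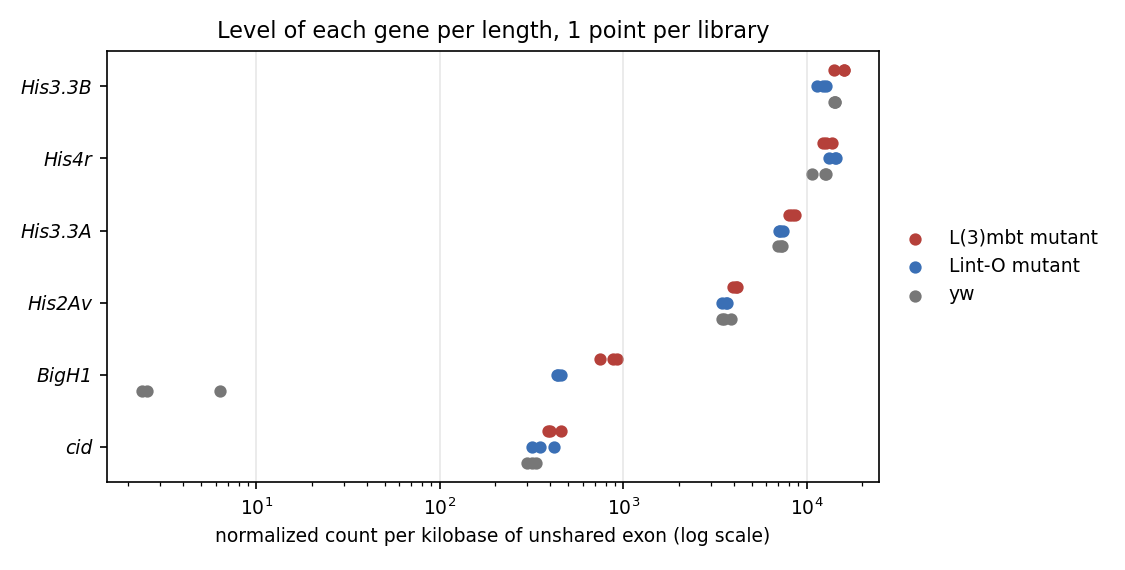
Normalized counts per kilobase of unshared exon on a log axis, 1 point per library (red: L(3)mbt mutant; blue: Lint-O mutant; grey: yw). BigH1 lies between 435 and 928 in the mutants and between 2.38 and 6.37 in yw.

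The somatic partner of BigH1 could not be set beside it. All 111 genes of the replication-dependent cluster in the table, the H1 copies among them, were listed at 0 in all 9 libraries. Their mRNAs normally carry no poly-A tail and come from near-identical copies. Whether the selection of poly-A RNA or the counting accounts for the zeros was not tested.

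The genes of the proteins that place these histones had small changes in RNA. Of 6 genes for H3.3 deposition, 1 rose (asf1, the H3-H4 chaperone, 0.23, SE 0.07) and 2 fell (the ATRX homologue XNP, -0.27, SE 0.06, and Daxx, -0.29, SE 0.08) in L(3)mbt mutants, where 18.1% of all tested genes were higher and 12.6% lower. By edgeR 0 rose and 2 fell there. In Lint-O mutants 0 were called by DESeq2 and 0 by edgeR, with 1 higher and 1 lower at an unadjusted p under 0.05. The call of asf1 was lost with edgeR, with TMM size factors and without any 1 of L(3)mbt mutant replicates 1 and 3 and yw replicates 2 and 3, and that of Daxx with library totals as size factors and without L(3)mbt mutant replicate 3 or yw replicate 1. The medians of the list were -0.02 and -0.05. These genes, and others below that were called in 1 comparison only, were named after their values were seen.

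Of 15 tested genes of the Domino, Tip60 and INO80 complexes, which exchange or acetylate H2A variants, 0 rose in either mutant by DESeq2, 1 fell in L(3)mbt mutants and 2 in Lint-O mutants, where 12.6% and 7.52% of all tested genes were lower. By edgeR 0 rose as well, and at an unadjusted p under 0.05 1 was higher in L(3)mbt mutants and 0 in Lint-O mutants. YL-1, the subunit that binds H2Av, fell in both. It had 856, 908 and 823 normalized counts in L(3)mbt mutants, 904, 809 and 848 in Lint-O mutants, and 1021, 1042 and 1087 in yw. Its log2 fold changes were -0.29 (SE 0.08, DESeq2 adjusted p = 0.00123) and -0.30 (SE 0.08, adjusted p = 0.00121). The first was lost with library totals as size factors (-0.23). It was also lost without any 1 of L(3)mbt mutant replicates 1 and 3 and yw replicate 3 (-0.32 to -0.25 over all removals). The second was lost without Lint-O mutant replicate 2 or 3 or yw replicate 3 (-0.35 to -0.26). The other gene that fell, rept (-0.20, SE 0.06, Lint-O mutants) lost its call without any 1 of L(3)mbt mutant replicate 1, Lint-O mutant replicates 1 and 2 and yw replicates 1, 2 and 3. The rept call was also lost with edgeR, with library totals as size factors and without both independent filtering and the Cook's distance cutoff. The partner of rept, pont, was listed at 0 in all libraries, and whether it was silent or left uncounted was not tested.

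Of 12 general histone chaperones, 0 rose and 5 fell in each mutant by DESeq2 and by edgeR, where 12.6% of all tested genes were lower in L(3)mbt mutants and 7.52% in Lint-O mutants. At an unadjusted p under 0.05, 3 were higher in L(3)mbt mutants and 0 in Lint-O mutants. Nlp, Nph, Nap1 and P32 fell in both, as did 533 (5.11%) of the 10422 genes tested in both comparisons, which share the yw libraries. Nph, and the naming of these 4 together, were chosen after the values were seen. These 4 are known in the fly as the chaperones that take apart sperm chromatin in egg extracts. The nucleoplasmin gene Nlp had 9175, 9128 and 9172 normalized counts in L(3)mbt mutants, 8742, 8344 and 8663 in Lint-O mutants, and 11011, 11664 and 11558 in yw. Both mutants lay well below yw, with log2 fold changes of -0.32 (SE 0.05, DESeq2 adjusted p = 2.67e-10) and -0.41 (SE 0.05, adjusted p = 1.96e-16). P32 fell by more in L(3)mbt mutants (-0.45, SE 0.05) than in Lint-O mutants (-0.20, SE 0.05), a direct difference of -0.26 (SE 0.05, DESeq2 adjusted p = 3.38e-05). Nap1 changed by -0.35 (SE 0.08) and -0.32 (SE 0.08), measured on the 26.99% of its exon sequence that no other gene shares. Nph changed by -0.19 (SE 0.06) and -0.27 (SE 0.06). Leaving out 1 library ended the P32 call in Lint-O mutants (Lint-O mutant replicate 2, yw replicate 2 or 3) and the Nap1 call there (Lint-O mutant replicate 2). It ended the Nph call in L(3)mbt mutants without any 1 of L(3)mbt mutant replicates 1, 2 and 3, Lint-O mutant replicate 2 and yw replicates 2 and 3. Spt6 (-0.24, SE 0.07, L(3)mbt mutants) and Ssrp (-0.25, SE 0.05, Lint-O mutants) completed the counts, and the Spt6 call was lost without L(3)mbt mutant replicate 1 or 3 or yw replicate 2. With library totals as size factors the Spt6 and Nph calls in L(3)mbt mutants and the P32 call in Lint-O mutants were lost. The list medians were -0.13 in both mutants.

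Among 7 genes of the histone locus body, histone mRNA 3′ end processing and histone storage, Lsm10 rose in both mutants. This subunit of the U7 particle had 120, 119 and 127 normalized counts in L(3)mbt mutants, 117, 108 and 142 in Lint-O mutants, and 69.0, 75.7 and 82.2 in yw. Its log2 fold changes were 0.69 (SE 0.19, DESeq2 adjusted p = 0.00160) and 0.68 (SE 0.20, adjusted p = 0.00295), with no overlap with yw. They did not pass without L(3)mbt mutant replicate 3 or yw replicate 1 in the first case, and without Lint-O mutant replicates 1 or 3 or yw replicates 1 or 2 in the second. In L(3)mbt mutants 3 of the 7 rose and 1 fell (Lsm11, -0.44, SE 0.15, lost without any 1 library but yw replicate 1), and in Lint-O mutants 1 rose and 0 fell. The Lsm11 call stood under only 5 of the 18 alternatives, and library totals as size factors and the replicate block were among those that ended it. Over all tested genes 18.1% were higher and 12.6% lower in L(3)mbt mutants, and 13.4% and 7.52% in Lint-O mutants. By edgeR the counts of the list were the same, and at an unadjusted p under 0.05 1 was lower in Lint-O mutants.

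Jabba, which anchors histones to lipid droplets in fly eggs and embryos, moved most in that list. It had 176, 186 and 170.1 normalized counts in L(3)mbt mutants, 50.7, 45.2 and 30.8 in Lint-O mutants, and 37.7, 17.5 and 22.1 in yw. L(3)mbt mutants stood apart and the other groups overlapped. Jabba was 2.79 higher in L(3)mbt mutants than in yw on the log2 scale (SE 0.26, DESeq2 adjusted p = 1.41e-24), and 2.06 higher than in Lint-O mutants (SE 0.25, adjusted p = 6.43e-15). Both calls stood without any single library. The stem-loop binding protein gene Slbp was also higher in L(3)mbt mutants, by 0.32 over yw (SE 0.08, lost without yw replicate 2) and by 0.35 over Lint-O mutants (SE 0.08).

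Of 10 centromere and kinetochore partners of cid, 3 rose and 1 fell in L(3)mbt mutants, and 2 rose and 0 fell in Lint-O mutants. Over all tested genes 18.1% were higher and 12.6% lower in the first comparison, and 13.4% and 7.52% in the second. By edgeR 2 rose and 1 fell in L(3)mbt mutants and 2 rose and 0 fell in Lint-O mutants, where 1 was lower at an unadjusted p under 0.05. The outer kinetochore gene Nuf2 rose in both, as did 1226 (11.8%) of the 10422 genes tested in both. It had 902, 937 and 943 normalized counts in L(3)mbt mutants, 875, 860.0 and 858 in Lint-O mutants, and 657, 661 and 728 in yw. The log2 fold changes were 0.44 (SE 0.08, DESeq2 adjusted p = 2.98e-07) and 0.34 (SE 0.08, adjusted p = 0.000237), and both stood without any single library. Nnf1b, a subunit of the Mis12 complex, had 713, 646 and 621 normalized counts in L(3)mbt mutants, 727, 691 and 708 in Lint-O mutants, and 488, 538 and 519 in yw. Its changes were 0.36 (SE 0.09, DESeq2 adjusted p = 0.000423, lost without L(3)mbt mutant replicate 1) and 0.46 (SE 0.09, adjusted p = 5.99e-06). In L(3)mbt mutants Ndc80 rose (0.23, SE 0.07) and Mis12 fell (-0.33, SE 0.09). The Ndc80 call was lost without any 1 of L(3)mbt mutant replicates 1, 2 and 3 and yw replicates 1 and 2, and the Mis12 call without L(3)mbt mutant replicate 3 or yw replicate 3. Ndc80 also lost its call with edgeR and with TMM size factors, and Mis12 with library totals as size factors. The list medians were 0.09 and 0.08.

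Of 9 genes of sperm and paternal chromatin, 6 had counts and 4 could be tested. Of these 4, 2 were called higher in L(3)mbt mutants and 1 in Lint-O mutants, with 0 lower. Over all tested genes 18.1% and 13.4% were higher. By edgeR 1 was higher in each mutant. The tested genes mh and tHMG2 were called in neither mutant. ProtA, Mst77F and Tpl94D had no counts in any library. ProtB and Prtl99C had counts but could not be tested. Prtl99C averaged 0.61 normalized counts in L(3)mbt mutants, 0.65 in Lint-O mutants and 2.3 in yw, with overlap. The testis HMG-box gene tHMG1 had 35.5, 73.3 and 34.5 normalized counts in L(3)mbt mutants, 15.6, 11.6 and 13.5 in Lint-O mutants, and 0 in each yw library. Against a floor of 3 counts in each yw library it was at least 15.9-fold higher in L(3)mbt mutants and at least 4.52-fold higher in Lint-O mutants (DESeq2 adjusted p = 1.23e-09 and 8.86e-06). L(3)mbt mutants exceeded Lint-O mutants by 1.81 on the log2 scale (SE 0.47, DESeq2 adjusted p = 0.00138), a call lost without replicate 2 of either mutant. The thioredoxin gene dhd, which acts on protamines in the fertilised egg, was called higher in L(3)mbt mutants, at 8.63 ± 2.08 normalized counts against 0.388 ± 0.672 in yw (SD, n = 3). That call was lost without any 1 of L(3)mbt mutant replicates 1, 2 and 3 and yw replicates 1 and 3.

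Of 7 HMG-type and other architectural chromatin genes, 0 were called against yw in either mutant by DESeq2 or by edgeR, with medians of 0.08 and -0.11. Over all tested genes 18.1% were higher and 12.6% lower in L(3)mbt mutants, and 13.4% and 7.52% in Lint-O mutants. At an unadjusted p under 0.05, 2 were higher and 1 lower in L(3)mbt mutants, and 0 were higher and 3 lower in Lint-O mutants. Between the mutants 3 were higher in L(3)mbt mutants: D1 (0.32, SE 0.07), HmgD (0.20, SE 0.05) and the gene of HP1a (0.26, SE 0.07). In that comparison 9.22% of all tested genes were higher and 5.71% lower, and by edgeR 1 of the 7 was higher. The calls of HmgD and the HP1a gene were lost with edgeR and without either L(3)mbt mutant replicate 1 or replicate 3 of Lint-O mutants, and that of HmgD also without Lint-O mutant replicate 2.

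**Figure D5:**
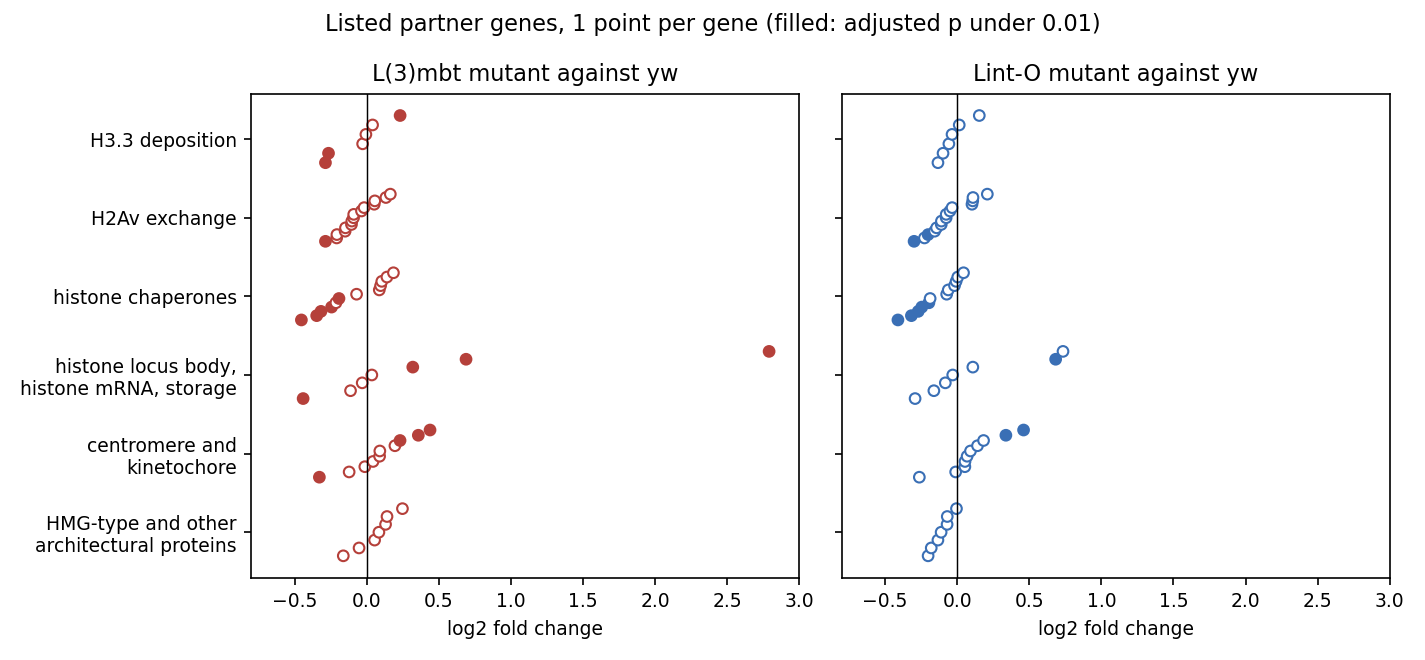
Log2 fold change against yw of the tested genes in 6 lists of partner genes, for L(3)mbt mutants (left) and Lint-O mutants (right), 1 point per gene (filled: adjusted p under 0.01). Most points lie within 0.5 of 0, and the point at 2.79 in L(3)mbt mutants is Jabba.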

How the data were processed

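The 9 libraries, 3 per group, were made from poly-A-selected RNA. The authors deposited raw read counts per gene, with no normalization and a separate column for each library. Their methods and processing notes name removal of ribosomal RNA reads, HISAT2, the dm6 genome and featureCounts. Versions, annotation and counting options are not given in the sources used here. All columns were assigned to samples through the sample descriptions.

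The counts were analysed with DESeq2 1.42.0 (R 4.3.3), the tool the study's methods name with an FDR threshold of 0.01. The fit, chosen here, used median-of-ratios size factors, the 3 groups of 9 libraries in 1 fit, two-sided Wald tests, default filtering and Benjamini-Hochberg adjustment over all genes tested. The threshold for a call was an adjusted p of 0.01. The edgeR 4.0.16 quasi-likelihood test, other size factors, filters and thresholds, a replicate block and the removal of each library were alternatives. The DESeq2 and edgeR code was tested on simulated data. Symbols and exon lengths came from Ensembl release 115, which held 17559 of the 17611 identifiers. Ino80 could not be matched.

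The members and lists were chosen with earlier results of these data known. From each list, genes called in both mutants in 1 direction were named, at most 3 per direction and those with the largest smaller change. Exceptions are marked in the text as chosen after the values were seen. For BigH1 the 5 nearest profiles were named. The neighbour window of 50 kb and the H3.3 shares were added after the values were seen. A count of 0 allows up to 3 counts, or 0.0952 to 0.161 CPM. Such floors and counting intervals cover counting error only, since the reads carry no molecular identifiers. Replicates differed by more than sampling noise (chi-square per degree of freedom 3.84 to 15.0). No sequence was printed, since no file used here holds one.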

Additional observations from a re-analysis of the deposited data

Results flagged for a closer look

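For 3 of the 6 genes the mutants differed in the direct test, where allele and strain background cannot be told apart. BigH1 was higher in L(3)mbt mutants than in Lint-O mutants by 0.94 on the log2 scale, His3.3A by 0.20 and His3.3B by 0.34. For BigH1 the difference is between 2 rises over yw. For His3.3A L(3)mbt mutants rose over yw and Lint-O mutants were at 0.00. For His3.3B Lint-O mutants fell and L(3)mbt mutants had 0.11, which missed the threshold.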

How the results depend on the processing

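BigH1 was called higher in both mutants under all 18 alternatives, with log2 fold changes of 7.60 to 8.44 in L(3)mbt mutants and 6.67 to 7.51 in Lint-O mutants. The smaller changes of the other genes moved across the threshold under several alternatives, and the cause was not tested. With edgeR, cid in L(3)mbt mutants (0.36), His4r in Lint-O mutants (0.22) and the direct difference of His3.3A (0.19) were not called, and His3.3A in Lint-O mutants was at -0.0039. With TMM size factors cid (0.36) and His4r (0.21) lost their calls, and His3.3A in Lint-O mutants was at -0.0073. Both left 1 of the 6 genes called higher in Lint-O mutants.

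With library totals as size factors His2Av passed in L(3)mbt mutants (0.23) and in the direct comparison (0.19), and was at 0.037 in Lint-O mutants. His3.3B (-0.18) lost its call there, which left 0 of the 6 lower, and 473 of all genes were lower. This scaling moved the share of calls that were higher to 71.2% in L(3)mbt mutants and 77.9% in Lint-O mutants, against 59.0% and 64.0% with median-of-ratios factors, and it moved the medians of all tested genes by 0.06 and 0.05. With only genes of at least 10 counts in at least 3 libraries His2Av passed in L(3)mbt mutants (0.17). With independent filtering and the Cook's distance cutoff both left out, His4r (0.22) did not pass in Lint-O mutants, which left 1 gene higher.

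At a threshold of 0.05 His2Av passed in L(3)mbt mutants (0.17) and in the direct comparison (0.19), and the genes called lower numbered 1221 in Lint-O mutants and 866 in the direct comparison. Where a call also required an absolute log2 fold change of at least 1, BigH1 was the 1 gene of the 6 called in each mutant, and 0 were called between the mutants. This dropped His3.3A (0.21) and cid (0.39) in L(3)mbt mutants, His4r (0.22) and His3.3B (-0.23) in Lint-O mutants, and BigH1 (0.94), His3.3A (0.20) and His3.3B (0.34) in the direct comparison. Over all genes it left 1082 higher and 74 lower in L(3)mbt mutants, 769 and 25 in Lint-O mutants, and 243 and 36 between the mutants.

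Leaving out each library in turn left 1 to 4 of the 6 genes higher in L(3)mbt mutants, and 1 to 2 higher and 0 to 1 lower in Lint-O mutants. In L(3)mbt mutants the range was 0.13 to 0.22 for His2Av, 0.18 to 0.24 for His3.3A, 0.082 to 0.17 for His3.3B and 0.31 to 0.43 for cid. In Lint-O mutants it was -0.048 to 0.039 for His2Av, -0.019 to 0.024 for His3.3A, -0.27 to -0.19 for His3.3B and 0.15 to 0.27 for His4r. In the direct comparison it was 0.16 to 0.21 for His2Av and 0.18 to 0.23 for His3.3A. Signs changed in Lint-O mutants for His3.3A (-0.019 without Lint-O mutant replicate 1, -0.016 when yw replicate 1 was left out) and His2Av (0.0084 without Lint-O mutant replicate 2, 0.039 when yw replicate 3 was left out). Over all genes, 500 to 853 were lower in Lint-O mutants and 309 to 657 in the direct comparison.

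Replicate numbers did not pair the samples: deviations of same-numbered libraries from their group means correlated at -0.17 to 0.12. With the replicate block His2Av passed in L(3)mbt mutants (0.17, DESeq2 adjusted p = 0.00661) and in the direct comparison (0.19, adjusted p = 0.00635). No other call of the 6 genes changed. The names nearest to BigH1 shared 0 of 5 with those by Pearson's r. Depth limits BigH1 in yw, where 14 counts in all set the size of its fold changes.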
